A study of Mus musculus with 16 samples.

Results

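The genes described here are the canonical histone genes of the mouse: 67 protein-coding genes, of 54532 genes listed, whose symbols begin with Hist1h, Hist2h, Hist3h or Hist4h. They were chosen by symbol and biotype alone, with no measured value. By class they comprise 6 linker histone H1 genes, 18 H2A, 18 H2B, 12 H3 and 13 H4 genes. By cluster, 54 lie in cluster 1 on chromosome 13, 10 in cluster 2 on chromosome 3, 2 in cluster 3 on chromosome 11 and 1 in cluster 4 on chromosome 6. RNA sequencing was done on KPC1199 cells, a mouse pancreatic cancer line, that had been implanted in the pancreas and were later sorted from the tumours. The study asked how Ly6d, which encodes a small protein of the cell surface, bears on pancreatic tumours. Each of 4 sorted groups had 2 libraries: WT cells, cells overexpressing Ly6d, cells sorted for high Ly6d and cells sorted for low Ly6d. Every group shared the line and the orthotopic site. The labels give no host strain, host age, vector or number of animals, and do not say whether the libraries of a group came from separate tumours, so the p-values below measure only the spread between these libraries. The overexpression columns were assigned to their group by inference, because their library name is one that the labels use for overexpression tumours and not for the sorted cells. Whole tumours, labelled in 8 further samples, were not analysed here.

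Histones package DNA: a pair each of H2A, H2B, H3 and H4 proteins forms the nucleosome core, and H1 binds the linker DNA between cores. Most canonical histone genes are transcribed in S phase, when newly copied DNA has to be packaged. Their mRNAs are unusual in ending at a stem-loop, bound by the protein SLBP, rather than in a poly(A) tail, although several of these genes also give polyadenylated transcripts. Libraries made by poly(A) selection therefore recover most canonical histone mRNAs poorly. No source used here says whether these libraries were made from poly(A) RNA.

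The stem-loop was looked for as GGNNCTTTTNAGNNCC on the sense strand of the GENCODE M21 protein-coding transcripts (GRCm38). It was found in 44 of the 67 genes, and in 72 of 21901 protein-coding genes in all (0.329%). The sites below are shown because they belong to the genes whose levels are described most fully, and because cluster 3 and cluster 4 are small enough to show whole. Capitals mark the 16-base stem-loop, with 5 bases on either side.
Hist1h1c: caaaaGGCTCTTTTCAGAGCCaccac
Hist1h1e: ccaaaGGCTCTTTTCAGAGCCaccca
Hist1h3e: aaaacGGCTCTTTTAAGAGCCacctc
Hist1h2ao: aaaaaGGCTCTTTTCAGAGCCatcca
Hist3h2a: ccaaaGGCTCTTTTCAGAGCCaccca
Hist3h2ba: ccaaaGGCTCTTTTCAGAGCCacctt
Hist1h4d: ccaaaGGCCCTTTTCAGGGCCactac
Hist4h4: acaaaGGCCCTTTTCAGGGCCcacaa
Hist1h4i: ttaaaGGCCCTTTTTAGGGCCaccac
In GRCm38 these sites lie at chr13:23739507-23739532 on the plus strand (Hist1h1c), chr13:23621777-23621802 on the minus strand (Hist1h1e), chr13:23561898-23561923 on the minus strand (Hist1h3e), chr13:21810893-21810918 on the plus strand (Hist1h2ao), chr11:58955167-58955192 on the plus strand (Hist3h2a), chr11:58949344-58949369 on the plus strand (Hist3h2ba), chr13:23581945-23581970 on the plus strand (Hist1h4d), chr6:136803993-136804018 on the minus strand (Hist4h4) and chr13:22040961-22040986 on the minus strand (Hist1h4i). The most frequent form, that of Hist1h1c, was carried by 26 genes: 3 of H1, 10 of H2A, 8 of H2B and 5 of H3. The form of Hist1h3e was carried by 6 genes of H1, H2B and H3. H4 genes had forms of their own, with 7 sharing that of Hist4h4 and 2 that of Hist1h4i. No match was found in the annotated protein-coding transcript of Hist1h2bc, the member with the highest mean level.

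The annotated 3′ ends fell into groups by whether a stem-loop was present and where the model ended. In 21 genes the model ended within 60 bases of the stem-loop, and in 23 it ran on for more than 60 bases. A further 13 models had no stem-loop and stopped at the stop codon, and the other 10 had none and ended elsewhere. Of the 29 genes whose model ran past the stem-loop by over 60 bases, or held AATAAA or ATTAAA in its last 50 bases, 14 had enough counts to be tested between WT and overexpression cells. Of the 38 genes with neither, 2 were tested, and Hist1h2bc, the member with the highest mean level, was among them. Between Ly6d-high and Ly6d-low cells the corresponding numbers were 20 of 29 and 13 of 38. A longer model also collects more reads, so these numbers are not levels per length. The 2 sets also differed in sequence shared with other genes. The median share of 50-base windows found in another gene was 28.9% in the 29 genes and 72.85% in the 38. Which of these features bears on the counts was not tested.

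Upstream sequence was taken from RefSeq (GRCm38.p6) for 62 of the 67 genes, as the 250 bases before the annotated start, and searched on both strands. The TATA box, TATAAA, was present in 29 of the 62 (46.8%, against 12.97% of 27025 gene starts). The CCAAT box was present in 51 (82.3%, against 34.46%), including all 6 H1, 18 H2A and 16 H2B genes matched but 3 of 12 H4 genes. The octamer ATTTGCAT, a site of Oct factors, was present in 7 of 18 H2A and 6 of 16 H2B genes and in no H1, H3 or H4 gene (1.61% of all starts). Windows of H2A and H2B genes that start close together on opposite strands can cover the same DNA. The same site can then count for both genes, as the octamer between Hist1h2ah and Hist1h2bk does, so these counts are not independent. The H1 box AAACACA was present in 5 of 6 H1 genes (6.22% of all starts). None of these motifs lies within another. The promoters of Hist1h1c and Hist1h1e, which are called in a comparison below, and of Hist1h1b, which shares no sequence window with another gene, are shown to compare the order of these elements in H1 genes, with Hist1h2ac as an H2A gene that has the octamer, here read as its reverse complement. Capitals mark these 4 motifs on either strand. Each sequence is only the last part of the searched window and runs up to the base before the RefSeq start.
Hist1h1c: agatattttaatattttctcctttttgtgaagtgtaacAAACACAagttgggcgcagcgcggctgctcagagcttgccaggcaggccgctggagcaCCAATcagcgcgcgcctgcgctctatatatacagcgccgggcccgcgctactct
Hist1h1e: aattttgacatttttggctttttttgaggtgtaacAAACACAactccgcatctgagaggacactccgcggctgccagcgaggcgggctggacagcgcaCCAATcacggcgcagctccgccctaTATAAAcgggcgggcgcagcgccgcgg
Hist1h1b: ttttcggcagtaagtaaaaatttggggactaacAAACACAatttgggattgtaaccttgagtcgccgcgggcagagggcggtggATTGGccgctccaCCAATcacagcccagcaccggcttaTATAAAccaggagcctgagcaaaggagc
Hist1h2ac: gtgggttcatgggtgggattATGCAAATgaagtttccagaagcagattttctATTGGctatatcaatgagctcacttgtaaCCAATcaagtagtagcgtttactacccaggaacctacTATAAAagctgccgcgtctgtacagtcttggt
They lie at chr13:23738657-23738806 on the plus strand (Hist1h1c), chr13:23622559-23622708 on the minus strand (Hist1h1e), chr13:21780626-21780775 on the minus strand (Hist1h1b) and chr13:23683960-23684109 on the minus strand (Hist1h2ac). In the part shown, these H1 genes had the H1 box first and a CCAAT box nearer the start. TATAAA followed in Hist1h1e and Hist1h1b, and these letters were not in the window of Hist1h1c. The searched window of Hist1h1b held a further CCAAT box before its H1 box, outside the part shown. A match is a description of the sequence and says nothing of which factor was bound.

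Library totals ran from 15449241 to 18290325 counts for WT and overexpression cells and from 15063975 to 20509539 reads, recovered from TPM (transcript levels scaled for gene length and library total), for Ly6d-high and Ly6d-low cells. Ly6d was at 1260 and 1066 CPM (counts scaled to a common library total) in WT against 3380 and 3423 in overexpression libraries. It was at 697 and 504 TPM in Ly6d-high against 1.56 and 0.352 TPM in Ly6d-low libraries. The first contrast cannot check the inferred assignment of the overexpression columns, since Ly6d would also be high in overexpression tumours. The second contrast was set by the sort. All 10 tumour epithelial markers were measured, and together took from 1.27% to 1.40% of reads in WT and overexpression libraries 3.21% and 2.97% in Ly6d-high and 4.53% and 4.54% in Ly6d-low libraries, so they were lower in both Ly6d-high libraries. Of the 10, 2 rose and 4 fell between Ly6d-high and Ly6d-low by limma. Markers of other cells also differed between the groups. Over all genes tested, 2.32% rose and 1.84% fell with overexpression (edgeR). Between Ly6d-high and Ly6d-low, 8.64% rose and 1.17% fell (limma). Between overexpression and WT, all 16 acinar and 7 islet markers and 5 of 7 endothelial markers tested fell, while 6 of 7 pan-leukocyte, 7 of 8 neutrophil, 6 of 10 macrophage and 2 of 5 B and plasma cell markers rose. Between Ly6d-high and Ly6d-low, 12 of 16 acinar, 2 of 5 pan-leukocyte, 1 of 2 neutrophil, 4 of 7 macrophage, 3 of 5 B and plasma cell markers and the 1 T cell marker tested rose, and 4 of 7 islet markers fell. The summed acinar markers took 2.31% and 2.38% of reads in WT, 0.172% and 0.191% in overexpression, 0.809% and 0.726% in Ly6d-high and 0.352% and 0.355% in Ly6d-low libraries. The summed pan-leukocyte markers took 0.00123% to 0.00130% in WT, 0.00545% to 0.00647% in overexpression, 0.00217% to 0.00232% in Ly6d-high and 0.00115% to 0.00128% in Ly6d-low libraries. No marker of the acinar, islet, pan-leukocyte, macrophage or endothelial lists was at 0 in every library of a table, while 1 of the B and plasma cell list (WT and overexpression) and 1 each of the neutrophil and erythroid lists (Ly6d-high and Ly6d-low) were. The part of these cells in the histone values was not tested, and in bulk samples fewer cells of a type and less RNA per cell cannot be told apart.

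The library WT 2 stood apart from the others. A short RNA gene, Gm23935, took 30.1% of its reads per length, against 2.45% to 3.45% in the other libraries of that table. Levels per length in the WT and overexpression libraries are therefore given as RPKM (CPM divided by the gene length in kilobases), which a single short gene does not rescale, and each result below is also stated without WT 2 where its call depends on it.

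Canonical histone transcripts were a minor part of every library, and a few genes supplied most of them. The 67 genes together had 2097 and 1809 counts in WT and 2493 and 2712 in overexpression libraries, or 116 and 117 CPM against 136 and 151 CPM. Both overexpression libraries lay above both WT libraries, with a ratio of 1.23 ± 0.0877 (SD of the ratio from n = 2 each). Without Hist1h1c, the gene with the largest share, the ratio was 1.13 ± 0.176 and the groups overlapped. In the other table the sums were 275 and 223 CPM, from recovered reads, in Ly6d-high and 234 and 231 in Ly6d-low libraries, so these groups overlapped. Their TPM sums, 643 and 532 against 530 and 526, did not overlap, with a ratio of 1.11 ± 0.15. Without Hist1h2bc, the gene with the largest share there, the TPM ratio was 1.19 ± 0.128. Without Hist1h2bc and Hist1h1c the CPM sums were 87.0 and 70.0 against 61.3 and 61.2, and did not overlap. The 2 tables were normalized separately, and no test was made between them. Any read was seen for 55 genes in the WT and overexpression libraries and for 57 in those sorted by Ly6d. At least 10 reads in all 4 libraries of a table were seen for 9 and 19 genes.

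**Figure D1:**
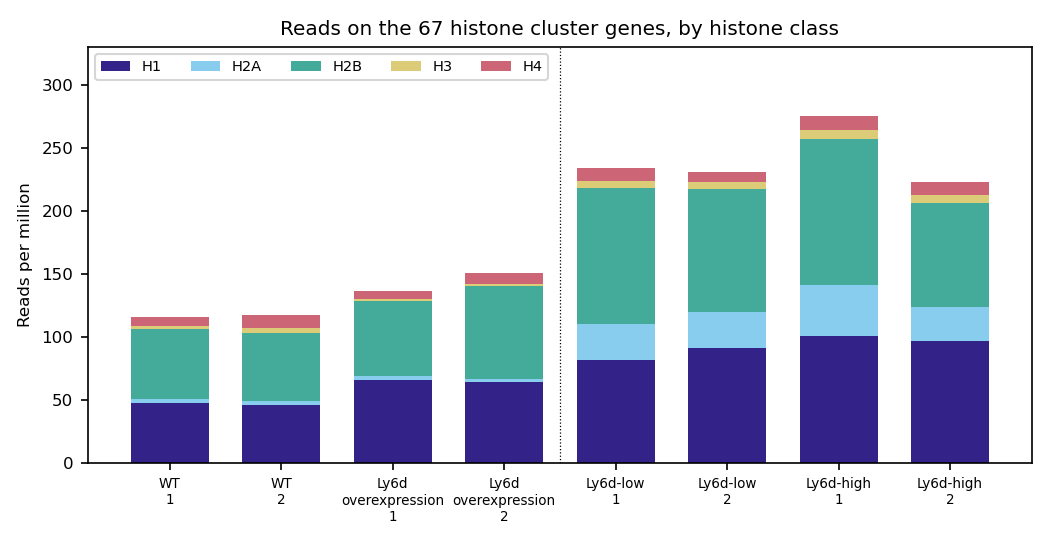
Reads in CPM falling on the 67 histone genes in each library, stacked by histone class (bar segments), with the WT and overexpression libraries left of the dotted line and the Ly6d-low and Ly6d-high libraries right of it. H1 and H2B fill most of every bar, and both overexpression bars (136 and 151) stand above both WT bars (116 and 117).

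Hist1h2bc, an H2B gene, and Hist1h1c, which encodes the linker histone H1.2, held 80.8% and 71.7% of all histone reads in WT and 83.6% and 79.4% in overexpression libraries. With Hist1h2ao added, these genes held 76.8% and 76.0% in Ly6d-high and 82.2% and 81.2% in Ly6d-low libraries. Hist1h2bc had a mean of 43.1 RPKM over the WT and overexpression libraries and 78.2 RPKM over the others. Hist1h1c followed at 34.0 and 51.6 RPKM. The next in the WT and overexpression libraries was the H4 gene Hist1h4i, with a mean of 6.503 RPKM, and no other member reached 2 RPKM there.

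**Figure D2:**
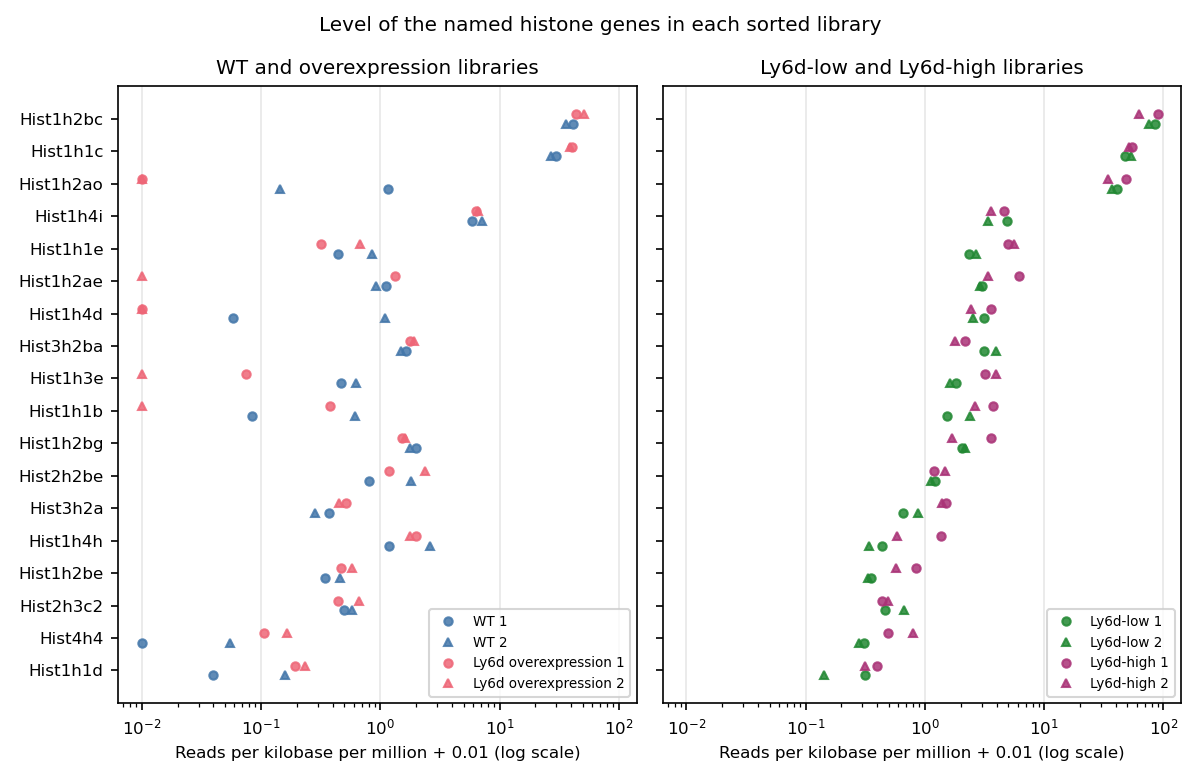
Level per length (RPKM plus 0.01, log axis) of the 18 histone genes selected by the naming rule, 1 point per library, in the WT and overexpression libraries (left) and in the Ly6d-low and Ly6d-high libraries (right). Hist1h2bc and Hist1h1c lie far to the right of the other genes in both panels, and Hist1h2ao does so only in the right panel.

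The H1 class was led by a single gene. Hist1h1c had 836 and 648 counts in WT and 1155 and 1091 in overexpression libraries. Hist1h1e, encoding H1.4, had 15 and 25 against 11 and 23 counts, and Hist1h1d, encoding H1.3, had 4 and 17 against 25 and 30. Hist1h1a and Hist1h1b each stayed at 8 counts or fewer in every one of those libraries, and the testis-type Hist1h1t had counts in 1 of them, 3 in WT 2. In the Ly6d-high libraries Hist1h1c was at 139 and 143 TPM and Hist1h1e at 12.7 and 15.3 TPM. The order among H1 genes was thus led by Hist1h1c in all 8 libraries, per length as well as in reads, with no overlap with the next gene.

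Among H2A genes, levels differed widely between the tables. Hist1h2ao had 10 and 1 counts in WT and 0 in both overexpression libraries, where a count of 0 allows up to 3. In the Ly6d-high libraries it had 474 and 303 reads, and in the Ly6d-low libraries 296 and 341. Of the 50-base windows of its transcript, 93.5% also occur in another gene. Hist1h2ap and Hist1h2ag, with 93.1% and 78.9% of their windows shared, were at 0 counts in all WT and overexpression libraries and between 4 and 33 reads in the libraries sorted by Ly6d. No source used here says how reads that match several genes were assigned, and the values of such near-identical genes are uncertain in both tables. Hist3h2a, from cluster 3, was steadier, with 14 and 9 counts in WT and 20 and 17 in overexpression libraries.

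H2B genes were led by Hist1h2bc, with 858 and 649 counts in WT and 928 and 1062 in overexpression libraries. Of its windows, 30.6% occur in another gene. It shares a divergent start region with Hist1h2ac, the starts lying 250 bases apart, yet the means were 43.1 RPKM for Hist1h2bc and 0.321 RPKM for Hist1h2ac. In the other table they were 201 and 4.59 TPM. In all, 12 such head-to-head pairs of an H2A and an H2B gene, with starts 175 to 305 bases apart, were found among the members. The pair Hist1h2ae and Hist1h2bg was at 0.834 and 1.72 RPKM, and the testis-type pair Hist1h2aa and Hist1h2ba was at 0 in all 8 libraries. Hist2h2be of cluster 2 had 38 and 73 counts in WT and 56 and 112 in overexpression libraries, and no window of its transcript occurs elsewhere.

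H3 and H4 genes took few reads beside H1 and H2B genes. In the WT and overexpression libraries H4 genes nevertheless took more than H2A genes. The H2A sums there were 3.42 and 3.30 CPM in WT and 3.06 and 2.67 CPM in overexpression libraries. The 12 H3 genes summed to 2.87 and 4.27 CPM in WT and 1.53 and 1.83 CPM in overexpression libraries, and the 13 H4 genes to 7.12 and 10.2 against 6.45 and 8.61 CPM. The H3 sums were lower in both overexpression than in both WT libraries, and the H4 sums overlapped. In these libraries Hist1h4i accounted for most of the H4 reads, with 78 and 80 counts in WT and 84 and 87 in overexpression libraries. In Ly6d-high 1, Ly6d-high 2, Ly6d-low 1 and Ly6d-low 2 it had 68, 48, 53 and 47 reads. Hist4h4, alone in cluster 4, had 0 and 2 counts in WT and 5 and 8 in overexpression libraries. Hist1h4d was uneven, with 1 and 19 counts in WT and 0 in both overexpression libraries, against 84, 51, 54 and 56 reads in the same order of the sorted libraries, more than Hist1h4i in each.

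By cluster, nearly all reads fell on cluster 1, the large cluster on chromosome 13. Its 54 genes summed to 111 and 110 CPM in WT and 130.2 and 141 CPM in overexpression libraries, and to 627 and 513 TPM in Ly6d-high against 513 and 507 TPM in Ly6d-low libraries. Cluster 2 summed to 3.26 and 5.89 CPM in WT and 3.61 and 7.22 CPM in overexpression libraries, most of it from Hist2h2be, and these groups overlapped. Cluster 3 summed to 1.77 and 1.49 against 2.19 and 2.11 CPM, and the overexpression libraries were the higher ones. In cluster 2, 6 of 10 genes had no read in any library. Its H3 gene Hist2h3c2 had 9 counts in each WT library and 8 and 12 in the overexpression libraries (log2 fold change 0.02 ± 0.88, edgeR adjusted p = 0.996).

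Sequence sharing ran through the whole set. The median gene had 54.1% of its 50-base windows in another gene, and 4 genes, Hist1h1a, Hist1h1b, Hist1h1t and Hist2h2be, had none. Of the 34 genes with 50% or more shared, 2 were tested between WT and overexpression cells and 11 between Ly6d-high and Ly6d-low cells. Of all 67 members, 16 and 33 were tested. The 9 genes with no read in any of the 8 libraries were Hist1h4b, Hist1h2aa, Hist1h2ba and, from cluster 2, Hist2h2aa1, Hist2h2aa2, Hist2h2ab, Hist2h2bb, Hist2h3b and Hist2h3c1. Their shared windows ran from 23.8% to 100%, with a median of 100%. A further limit is that 24 members overlap another listed gene, since no source used here says whether strand was used in counting. Windows were compared with all other genes on both strands, so such overlaps also enter the shared percentages. Hist2h2bb, for example, shared 100% of its windows with genes that are not members, and it overlaps Gm20628 and Gm42743.

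**Figure D3:**
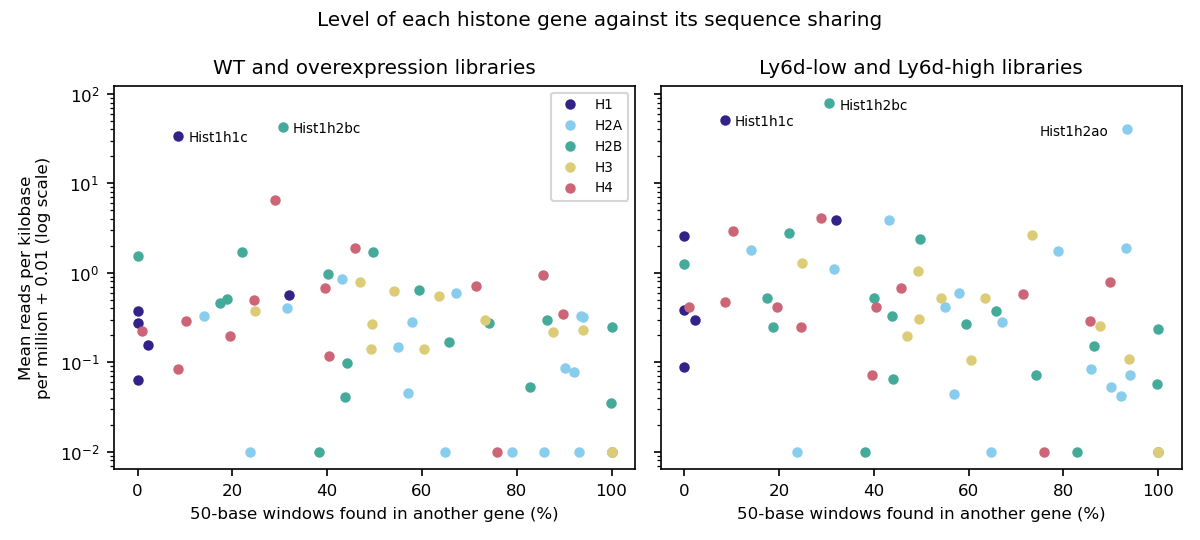
Mean level per length (RPKM plus 0.01, log axis) of each of the 67 genes against the percentage of its 50-base windows found in another gene, coloured by class, over the WT and overexpression libraries (left) and the Ly6d-low and Ly6d-high libraries (right). Hist1h2ao, at 93.5% shared, lies at 0.321 RPKM in the left panel and at 40.1 RPKM in the right panel.

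Overexpression was compared with WT in the 16 members that passed the filter on low counts: 3 of H1, 3 of H2A, 6 of H2B, 1 of H3 and 3 of H4. Hist1h1c (ENSMUSG00000036181, GRCm38 chr13:23738808-23740367, plus strand) rose. Its level was 46.2 and 41.9 CPM in WT and 63.1 and 60.6 CPM in overexpression libraries, so the groups did not overlap. The log2 fold change was 0.47 ± 0.10 (SE; edgeR quasi-likelihood test, Benjamini-Hochberg adjusted p = 0.0231), and DESeq2 gave an adjusted p of 0.0274. Without WT replicate 2 the call was lost (edgeR log2 fold change 0.41, adjusted p = 0.157). Hist1h1c was the 1 member called of 16, where 4.16% of the 15771 genes tested were called in either direction, 2.32% higher and 1.84% lower. No member was lower at the threshold by edgeR or DESeq2. At an unadjusted p under 0.05 edgeR gave 3 higher members and 0 lower, beside 9.05% and 8.24% of all genes tested.

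The other members did not pass, and most had few counts. Hist1h2bc was at 47.4 and 42.0 CPM in WT and 50.7 and 59.0 CPM in overexpression libraries. These groups did not overlap, and the log2 fold change was 0.28 ± 0.11 (edgeR adjusted p = 0.234). Without overexpression replicate 1 its adjusted p was 0.0476, which made 2 members higher. Hist1h2bh, another H2B gene, had 9 and 2 counts in WT and 18 and 31 in overexpression libraries (log2 fold change 2.04 ± 0.89, edgeR adjusted p = 0.266). It passed the filter on low counts through the overexpression libraries alone, so its groups had to differ. Hist1h4i, the leading H4 gene in this table, had a log2 fold change of -0.03 ± 0.32. Groups that did not overlap were found for 8 of the 16 members, 7 higher and 1 lower, while 48% of all genes tested had such groups (26.3% higher and 21.7% lower). The median log2 fold change was 0.12 over the 16 members and -0.00 over all genes tested. Without Hist1h2bc and Hist1h1c it was -0.00 over 14 members. The sign of the median depended on the filter on low counts. With no filter it was -0.67 over 55 members and -0.07 over all genes, and DESeq2 gave -0.67 and -0.06.

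In the cells sorted by Ly6d, Hist1h1e and Hist1h3e were higher in Ly6d-high than in Ly6d-low libraries. Hist1h1e (ENSMUSG00000051627, GRCm38 chr13:23620629-23622558, minus strand) was at 12.7 and 15.3 TPM in Ly6d-high and 5.83 and 6.71 TPM in Ly6d-low libraries, from 197, 196, 68 and 99 reads. Both high libraries lay above both low ones, and limma gave a difference in log2(TPM + 1) of 1.04 ± 0.18 (SE, adjusted p = 0.0138). Hist1h3e (ENSMUSG00000069273, GRCm38 chr13:23561534-23562369, minus strand), an H3 gene, was at 8.20 and 10.8 TPM against 4.55 and 4.07 TPM, from 55, 60, 23 and 26 reads. These groups were also apart, with a difference of 0.97 ± 0.20 (limma adjusted p = 0.0260). Hist1h3e shares 73.4% of its windows with other genes, and Hist1h1e shares 32.0% and overlaps Hist1h2be on the same strand. With overexpression neither was called. Hist1h1e had a log2 fold change of -0.39 ± 0.76 (edgeR adjusted p = 0.852), and Hist1h3e, with 7 and 8 counts in WT and 1 and 0 in overexpression libraries, was too low to be tested.

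The calls of Hist1h1e and Hist1h3e depended on the setting. On reads recovered from the TPM, edgeR gave a log2 fold change of 0.85 for Hist1h1e (adjusted p = 0.0237) and 0.84 for Hist1h3e (adjusted p = 0.124). DESeq2 on those reads called neither, with adjusted p of 0.0810 for Hist1h1e and 0.473 for Hist1h3e. Without Ly6d-low replicate 1 the limma adjusted p were 0.147 and 0.0960, and without Ly6d-low replicate 2 that of Hist1h3e was 0.176. With no filter on low values, the limma adjusted p were 0.0736 and 0.117. Both calls held with TMM factors on the TPM (limma adjusted p = 0.0272 and 0.0499).

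The 2 called members were among 33 tested, while 9.81% of the 14625 genes tested were called, 8.64% higher and 1.17% lower. No member was lower at the threshold by limma, by edgeR or by DESeq2. At an unadjusted p under 0.05, limma gave 8 higher members and 1 lower, beside 27% and 3.72% of all genes tested. Groups were apart for 14 of the 33 members, 11 higher and 3 lower, against 64.8% of all genes (54.4% higher and 10.4% lower). Of the 33, Hist1h2be and Hist4h4 passed the filter on low values through the Ly6d-high libraries alone, so their groups had to differ. Without them 31 members were left, 6 higher and 1 lower at the unadjusted p by limma, and 9 higher and 3 lower by groups that did not overlap. The median difference was 0.26 over the members and 0.25 over all genes tested, and with TMM factors these medians were 0.09 and 0.01. The genes that lead in reads did not pass: Hist1h2bc was at 229 and 172 TPM in Ly6d-high against 214 and 191 in Ly6d-low libraries, a difference of -0.02 ± 0.16. Hist1h1c was at 139 and 143 against 118 and 134 TPM, a difference of 0.16 ± 0.13 (limma adjusted p = 0.402) that was -0.11 with TMM factors. Hist1h2ao, at 123 and 94.9 against 102 and 93.0 TPM, had a difference of 0.15 ± 0.16, and Hist1h4i, at 11.7 and 9.93 against 12.1 and 8.46 TPM, one of 0.08 ± 0.21. The groups overlapped for all of these but Hist1h1c.

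**Figure D4:**
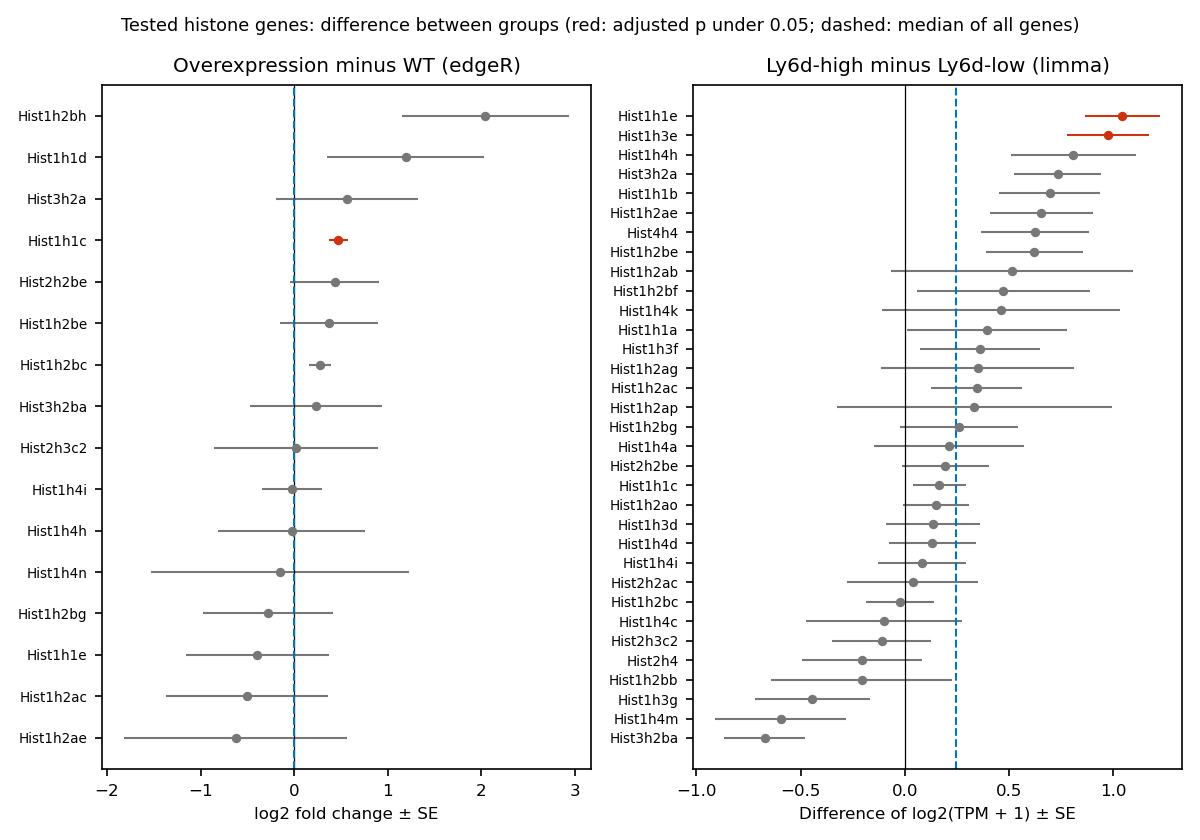
Log2 fold change of overexpression against WT for the 16 tested members (left) and difference in log2(TPM + 1) of Ly6d-high against Ly6d-low for the 33 tested members (right), as points with bars of 1 SE. Red marks an adjusted p under 0.05 (Hist1h1c on the left, Hist1h1e and Hist1h3e on the right), and the dashed line is the median of all genes tested.

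The small clusters gave pairs of members that can be set side by side. In cluster 3, Hist3h2a was at 3.84 and 3.78 TPM in Ly6d-high and 1.62 and 2.20 TPM in Ly6d-low libraries (difference 0.73 ± 0.21, limma adjusted p = 0.0712). Its neighbour Hist3h2ba, an H2B gene, was at 5.48 and 4.90 against 7.82 and 10.02 TPM (difference -0.67 ± 0.19, limma adjusted p = 0.0724). Both genes had groups that did not overlap, on opposite sides, and neither passed the threshold with all libraries. Without Ly6d-high replicate 1 both passed (limma adjusted p = 0.0445 and 0.0159). In the overexpression comparison their log2 fold changes were 0.56 ± 0.76 and 0.23 ± 0.70. Hist4h4 was at 1.22 and 2.15 TPM in Ly6d-high and 0.751 and 0.686 TPM in Ly6d-low libraries (difference 0.62 ± 0.26, limma adjusted p = 0.158), and is 1 of the 2 members that passed the filter through the Ly6d-high libraries alone.

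The 4 other members with an unadjusted limma p under 0.05 and a higher level in Ly6d-high cells were of H1, H2A, H2B and H4. Hist1h1b, an H1 gene with no shared window, was at 9.57 and 7.29 TPM against 3.79 and 5.99 TPM (difference 0.69 ± 0.24, limma adjusted p = 0.114). Hist1h2ae was at 15.8 and 9.40 against 7.52 and 7.25 TPM, Hist1h2be at 2.13 and 1.56 against 0.856 and 0.824 TPM, and Hist1h4h at 3.45 and 1.60 against 1.06 and 0.835 TPM. Each had groups that did not overlap and an adjusted p over the threshold, and Hist1h2be is the other member that passed the filter through Ly6d-high libraries alone. Hist1h4h rested on 13, 5, 3 and 3 reads.

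Histone genes outside the clusters, most of which are expressed independently of replication and carry poly(A) tails, took far more reads. The 11 listed genes took 0.209% to 0.258% of reads in the WT and overexpression libraries, and 0.528% to 0.885% in the others. The 67 cluster genes took 0.0116% to 0.0151% and 0.0223% to 0.0275%. Whether the libraries were made from poly(A) RNA is not known, so these shares do not give the relative abundance of the transcripts. With overexpression 1 of 11 rose and 0 fell (edgeR, with 4 higher and 0 lower at an unadjusted p under 0.05, and 1 and 0 called by DESeq2). Over all genes tested, 9.05% were higher and 8.24% lower at that unadjusted p by edgeR. The gene called was H1f0, the replacement linker histone H1.0, at 364 and 324 CPM in WT and 484 and 501 CPM in overexpression libraries. Its log2 fold change was 0.50 ± 0.07 (edgeR adjusted p = 0.00173), and it was called in every alternative run for that comparison. In the Ly6d-high libraries H1f0 was at 976 and 1036 TPM, against 1181 and 1162 TPM in Ly6d-low libraries (difference -0.22 ± 0.09, limma adjusted p = 0.158).

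Between Ly6d-high and Ly6d-low cells, 1 of the 11 rose and 2 fell. H2afy2, encoding a macroH2A variant, was at 11.3 and 12.9 TPM in Ly6d-high and 0.457 and 0.782 TPM in Ly6d-low libraries (difference 3.02 ± 0.21, limma adjusted p = 2.15e-04). It passed the filter on low values through the Ly6d-high libraries alone. H3f3b, a gene for the replacement histone H3.3, was at 3448 and 3079 against 5155 and 4842 TPM (-0.62 ± 0.09, limma adjusted p = 0.00645). H2afz, encoding H2A.Z, was at 887 and 770 against 1260 and 1224 TPM (-0.59 ± 0.11, limma adjusted p = 0.0161). On recovered reads edgeR and DESeq2 each called 4 of the 11 lower and 1 higher. Over all genes, edgeR called 591 of 15275 lower and 1224 higher there, and DESeq2 607 of 26237 lower and 940 higher. H3f3b and H2afz were called lower on these reads by edgeR (adjusted p = 0.00759 and 0.0109) and by DESeq2 (adjusted p = 3.06e-07 and 2.54e-06). With TMM factors H3f3b and H2afz had larger differences, -0.89 and -0.86, but no longer passed (limma adjusted p = 0.0595 and 0.0588). Without Ly6d-low replicate 1 they did not pass either (0.0570 and 0.209), and H2afz did not pass without Ly6d-low replicate 2 (limma adjusted p = 0.128). H2afy2 passed in every alternative that tested it, and the filter removed it when a Ly6d-high library was left out.

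Few genes that make and handle histone mRNA passed the threshold. At an unadjusted p under 0.05, 9.05% of all genes tested were higher and 8.24% lower with overexpression (edgeR). Between Ly6d-high and Ly6d-low cells these shares were 27% and 3.72% (limma). On recovered reads edgeR called 591 of 15275 genes lower and 1224 higher, and DESeq2 607 of 26237 lower and 940 higher. Of the 16 genes of histone transcription and 3′ processing, which include Slbp and the histone gene coactivator Npat, 0 were called with overexpression (edgeR, with 0 higher and 2 lower at an unadjusted p under 0.05, and 0 called by DESeq2). Of the 15 tested between Ly6d-high and Ly6d-low cells, 0 were called by limma, with 1 higher and 0 lower at an unadjusted p under 0.05, while edgeR and DESeq2 on recovered reads each called 1 lower. Slbp was at 54.1 and 51.8 CPM in WT and 41.9 and 49.5 CPM in overexpression libraries (log2 fold change -0.23 ± 0.11, edgeR adjusted p = 0.323). It was at 66.5 and 67.9 TPM in Ly6d-high and 69.9 and 69.4 TPM in Ly6d-low libraries. Of the 14 genes of histone mRNA decay tested, 0 were called with overexpression (edgeR, with 1 higher and 1 lower at an unadjusted p under 0.05, and 0 by DESeq2). Between Ly6d-high and Ly6d-low cells Lsm5 alone was lower, by limma (difference -1.91 ± 0.45, adjusted p = 0.0422). This call was lost at a pseudocount of 0.1 (limma adjusted p = 0.0579) and with TMM factors (difference -2.16, limma adjusted p = 0.106). On recovered reads Lsm5 was again the only one called, by edgeR (adjusted p = 0.0336) and by DESeq2 (adjusted p = 1.15e-04). Of 22 histone chaperone genes, 0 were called in either comparison by edgeR or limma. At an unadjusted p under 0.05, 0 were higher and 6 lower with overexpression, and 5 were higher and 1 lower in Ly6d-high cells, where edgeR on recovered reads called 3 lower and DESeq2 2. DESeq2 called 0 with overexpression.

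Genes of DNA replication, active in S phase as most canonical histone genes are, were counted beside them. With overexpression 1 of 40 fell, the helicase gene Mcm3, and 0 rose (edgeR, with 0 higher and 11 lower at an unadjusted p under 0.05, and 0 called by DESeq2). Over all genes tested, 9.05% were higher and 8.24% lower at that unadjusted p by edgeR. Mcm3 was at 113 and 112 CPM in WT and 88.5 and 93.3 CPM in overexpression libraries (log2 fold change -0.33 ± 0.08, edgeR adjusted p = 0.0391). This call was lost without WT replicate 1 (adjusted p = 0.102), WT replicate 2 (0.128) or overexpression replicate 1 (0.0651), all by edgeR. The median log2 fold change of the 40 genes was -0.14, beside 0.12 for the 16 histone members that passed the filter and -0.00 for all genes. With no filter on low counts the medians were -0.15 for the 40 genes, -0.67 for 55 histone members and -0.07 for all genes. Between Ly6d-high and Ly6d-low cells 1 of 38 fell, Gins1 (difference -0.60 ± 0.15, limma adjusted p = 0.0485), and 0 rose. At an unadjusted p under 0.05 limma gave 2 higher and 4 lower, beside 27% and 3.72% of all genes. The median difference was 0.03 for the 38 genes, 0.26 for the 33 histone members and 0.25 for all genes. With TMM factors these medians were -0.24, 0.09 and 0.01. Gins1 did not pass without Ly6d-low replicate 1 (limma adjusted p = 0.584) or replicate 2 (0.421). On recovered reads edgeR called 6 of 39 of these genes lower and DESeq2 8 of 40, with 0 higher in both. Over all genes, edgeR called 591 of 15275 lower and 1224 higher there, and DESeq2 607 of 26237 lower and 940 higher. Of 25 genes of G2 and M phase, 0 were called in either comparison by edgeR or limma, with 1 higher and 3 lower, and 2 higher and 1 lower, at an unadjusted p under 0.05. DESeq2 called 0 of them with overexpression, and on recovered reads edgeR called 2 lower and DESeq2 1.

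RNAs that lack a poly(A) tail took a small share of these libraries. The 19 listed genes, such as those of small nuclear RNAs, took at most 0.00904% of the counts, in WT 2, and as little as 6.73e-05%, in Ly6d-low 2. Among the WT and overexpression libraries 9 of the 19 had no count in any library, and 12 had no read in the others. The only one tested with overexpression, Rn7sk, was at 1.99 and 86.6 CPM in WT and 9.19 and 5.11 CPM in overexpression libraries (edgeR adjusted p = 0.195), so WT 2 was the high library here too. Of 4 tested between Ly6d-high and Ly6d-low cells, 0 were called by limma, and 0 had an unadjusted p under 0.05.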

How the data were processed

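RNA was sequenced from 8 libraries of sorted KPC1199 cells, 2 per group. The submitters' processing notes name the tools fastp, HISAT2, featureCounts and DESeq2 (no versions given) and build mm9. Table coordinates instead match GRCm38: 98.3% of the 54409 genes found in GENCODE M21, and all 67 members, have the same position. The deposited count table holds raw counts per gene for WT and overexpression cells. The deposited TPM table, for Ly6d-high and Ly6d-low cells, has TPM over a deposited gene length in bases. Columns were assigned by name, and 2 per-sample columns that match no label were not used. The tables' pooled columns were not used either.

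Counts were tested with edgeR 4.0.16 (R 4.3.3; filterByExpr, TMM, glmQLFit, glmQLFTest), and standard errors are the log2 fold change over the square root of F. For TPM, limma-trend (limma 3.58.1) was run on log2(TPM + 1) after a filter that kept genes reaching 1 TPM in 2 or more of the 4 libraries. Such differences understate the change of low genes. Both fits ran over all genes, with Benjamini-Hochberg adjusted p under 0.05 as the threshold, and both were tested on simulated data. TPM times length gave whole reads: 100% of 85643 values above 0 lay within 0.1 reads of a whole number, the largest deviation being 0.00015. RPKM were computed from counts or these reads. Alternatives were DESeq2 1.42.0 (adjusted p given as NA kept so), other scaling, filters and pseudocounts, and each library left out. Same-numbered Ly6d-high and Ly6d-low libraries did not deviate together (r = 0.07 over 14625 genes, which are not independent), so they were not treated as paired. Precision is limited by 2 libraries per group, and counts of 0 are read against a floor of 3 counts, which covers counting error only.

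Stem-loops, poly(A) signals and 50-base windows were read from GENCODE M21 transcripts, and promoters from RefSeq. The rule for the members used no measured value, but the rule and the lists were set with earlier results of these data known. Genes named are members past the threshold in either comparison, the 10 members with the highest mean CPM or TPM in each table, the top member of each class, all of clusters 3 and 4, Ly6d, and list genes past the threshold (up to 4 per list and comparison). Other members named were chosen after their values were seen. In the marker lists, 0 of 10 tumour epithelial genes rose and 1 fell with overexpression, and 2 rose and 4 fell in Ly6d-high cells. Of 8 fibroblast genes 2 and 0 rose, and of 5 and 4 erythroid genes 1 and 0. Of 5 endothelial genes 0 were called in Ly6d-high cells, and the 1 T cell gene tested was not called with overexpression. Whole tumours were not analysed here.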

Additional observations from a re-analysis of the deposited data

How the results depend on the processing

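With overexpression, 1 member was higher and 0 were lower under DESeq2, DESeq2 size factors and no filter. With 1 library left out, 0 to 2 members were higher: 0 without WT replicate 2 and 2 without overexpression replicate 1. The share ratio of 1.23 was 1.13 without Hist1h1c. Between Ly6d-high and Ly6d-low cells, 2 members were higher, and this count stayed with a pseudocount of 0.1 or TMM factors. It was 0 with no filter, 1 with edgeR and 0 with DESeq2 on recovered reads. With 1 library left out, 0 to 5 members were higher and 0 to 1 lower: 0 higher without Ly6d-low replicate 1, 5 without Ly6d-high replicate 2, and 1 lower without Ly6d-high replicate 1. The cause of these changes was not tested.

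With the replicate number as a block, 6 members were higher and 1 lower, and over all genes 3581 were higher and 598 lower, against 1264 and 171 without it. The libraries share only a number. No paired analysis was possible for overexpression and WT because the overexpression columns match no single sample. Over all genes, overexpression gave 366 higher and 290 lower calls, but 608 and 579 with no filter, 694 and 890 without overexpression replicate 1, and 526 and 536 without overexpression replicate 2. Ly6d-high against Ly6d-low gave 485 and 46 with no filter, 702 and 246 with TMM factors, 5599 and 1111 without Ly6d-high replicate 1, 1242 and 371 without Ly6d-high replicate 2, 833 and 98 without Ly6d-low replicate 1, 914 and 122 without Ly6d-low replicate 2, 1224 and 591 with edgeR and 940 and 607 with DESeq2 on recovered reads. No called member changed sign in any of these. Among the members tested, signs of uncalled ones turned for 7 of 33 with TMM factors, 6 of 21 with edgeR and 7 of 33 with DESeq2 on recovered reads, up to 9 of 25 with a Ly6d-sorted library left out (Ly6d-high replicate 1), and 3 to 4 of 16 with a WT or overexpression library left out. A leave-out fit with 1 library in a group assumes that it varies like the other group. Most members had too few reads to be tested.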
